A study of Mus musculus with 8 samples.

Results

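The genes described are the transcription factor ATF4 with its partners and targets of the integrated stress response, the enzymes of serine, glycine, proline and asparagine synthesis that ATF4 is known to regulate, and the cytosolic aminoacyl-tRNA synthetases. They were taken by symbol from a list of 34 genes, of the 55335 gene identifiers in the files. No cut-off on a measured value chose them, but the list was made with earlier results of these data known. The list holds 6 regulators and sensors, 8 amino acid enzymes and 20 synthetases. RNA came from CD8 T cells sorted from B16 tumours, a transplantable mouse melanoma. The CD36_KO library came from Cd36 knockout mice and the WT library from wild-type C57BL/6 mice, with C57BL/6 given as the strain background of both. B16 cells were injected intravenously and tumours grew for 14 days in both. CD36 is a scavenger receptor that takes up fatty acids and oxidised lipids. The 8 samples are 4 lanes of 1 library per genotype, so the genotypes have no replicates and no p-value was computed. The sources used here give neither the age and number of the animals nor the sorting gates or the form of the knockout allele.

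When amino acids run short or the endoplasmic reticulum is stressed, kinases phosphorylate the translation factor eIF2. General translation then drops, while the Atf4 mRNA is translated more, so ATF4 activity can change with little change in Atf4 mRNA. ATF4 binds composite C/EBP-ATF elements and raises transcription of amino acid transporters, biosynthetic enzymes and many cytosolic aminoacyl-tRNA synthetases, the enzymes that load each amino acid onto its tRNA. In T cells this programme supplies amino acids for growth after activation.

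The CD36_KO library held 10363391 estimated counts and the WT library 10071960, with 2569962 to 2611740 per CD36_KO lane and 2497048 to 2538468 per WT lane. Cd36 itself had 358 counts in the CD36_KO library and 1194 in the WT library, a log2 ratio of -1.98 (95% interval -2.15 to -1.80). Markers of several cell types differed between the libraries. The 10 CD8 T cell markers summed to 1110 to 1146 CPM (counts per 1000000 counts, after scaling of the libraries) over the CD36_KO lanes and 335.5 to 353.3 CPM over the WT lanes, and 10 of 10 were at least 2-fold higher in CD36_KO. The 10 melanoma markers summed to 1320 to 1371 CPM in CD36_KO and 5471 to 5693 CPM in WT, with 10 of 10 at least 2-fold lower. The 10 macrophage and monocyte markers summed to 3709 to 3733 CPM in CD36_KO and 4849 to 4899 CPM in WT, with 2 of 10 at least 2-fold lower, and the fibroblast markers to 279.2 to 285.8 CPM in CD36_KO and 1154 to 1202 CPM in WT, with 5 of 6 measured markers lower. The 8 hepatocyte markers summed to 629.5 to 664.7 CPM in CD36_KO and 88.3 to 109.7 CPM in WT, and the 5 B cell markers to 61.6 to 71.8 CPM in CD36_KO and 8.69 to 13.5 CPM in WT, all of them at least 2-fold higher. No marker was at 0 in either library. Many cell types express the 34 genes, and the part of this cell mixture in every result that follows was not tested. In such bulk RNA, fewer cells of a type and less RNA per cell cannot be told apart.

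Ratios are log2 of CD36_KO over WT on CPM scaled by TMM, a method that sets most genes to equal levels. The intervals are exact 95% Clopper-Pearson intervals and cover counting error only; without molecular identifiers, reads of 1 molecule can be counted repeatedly. A gene was measured at a mean of at least 5 CPM, and counted as higher or lower when its ratio was at least 2-fold and its interval excluded no difference. The median ratio of the 12177 measured genes was -0.13 with TMM, 0.07 with total counts and 0.37 with the deposited TPM (transcripts per 1000000), so directions of single genes depend on the scaling and are also given relative to that median. The effective lengths in the files implied mean fragments of 194.0 to 194.6 bases in the CD36_KO lanes and 159.8 to 161.1 bases in the WT lanes. That difference moves counts per transcript length, and its part in the gap between the TMM and TPM values was not tested.

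Of the 34 genes, 31 were measured, and most were modestly lower in the CD36_KO library. Asns, Aars and Sesn2 were at least 2-fold lower and none was at least 2-fold higher. That is 9.68% of the 31, beside 10.8% of all measured genes lower and 6.5% higher by the same rule, so the count at 2-fold is near the background. At 1.5-fold, 16 of 31 (51.6%) were lower, beside 23.2% of all measured genes, and 0 were higher, beside 13.5%. The counting interval lay below 0 for 28 (90.3%), beside 40.7% of all measured genes, and above 0 for 1 (3.23%), beside 24.9%. All 4 CD36_KO lanes lay below all 4 WT lanes for 25 (80.6%), beside 33.3% of all measured genes, and above them for 0, beside 19.6%. Intervals and lanes separate more easily at higher counts. Of the 31 genes 26 averaged 20 CPM or more, beside 6772 of the 12177 measured genes, and the part of this in these shares was not tested. Lanes repeat the sequencing of a single library, so this separation speaks of reading error and not of animals.

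The median ratio of the 31 genes was -0.60, which is 0.47 below the median of all measured genes (a difference of -0.47). On the log2(TPM + 1) scale, 0 of the 31 were at least 2-fold lower or higher. By that rule 2.7% of all measured genes were lower and 12.3% higher. The added 1 understates differences of low genes. In plain TPM, Asns (3.87 in CD36_KO, 8.09 in WT) was more than 2-fold lower. Atf5 (6.98 in CD36_KO, 3.45 in WT) was just over 2-fold higher. The TPM median of the 31 genes was 0.11, which differed from the all-gene median by -0.25. The sign of the median thus turned with the scaling while its difference from all genes stayed negative. Below the all-gene median lay 29 of 31 with TMM, 29 with total counts and 27 with TPM. Summed over all 34 genes, CD36_KO had 12372 counts (1115 CPM) and WT 16005 counts (1701 CPM), a log2 ratio of -0.61 (-0.64 to -0.58).

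**Figure D1:**
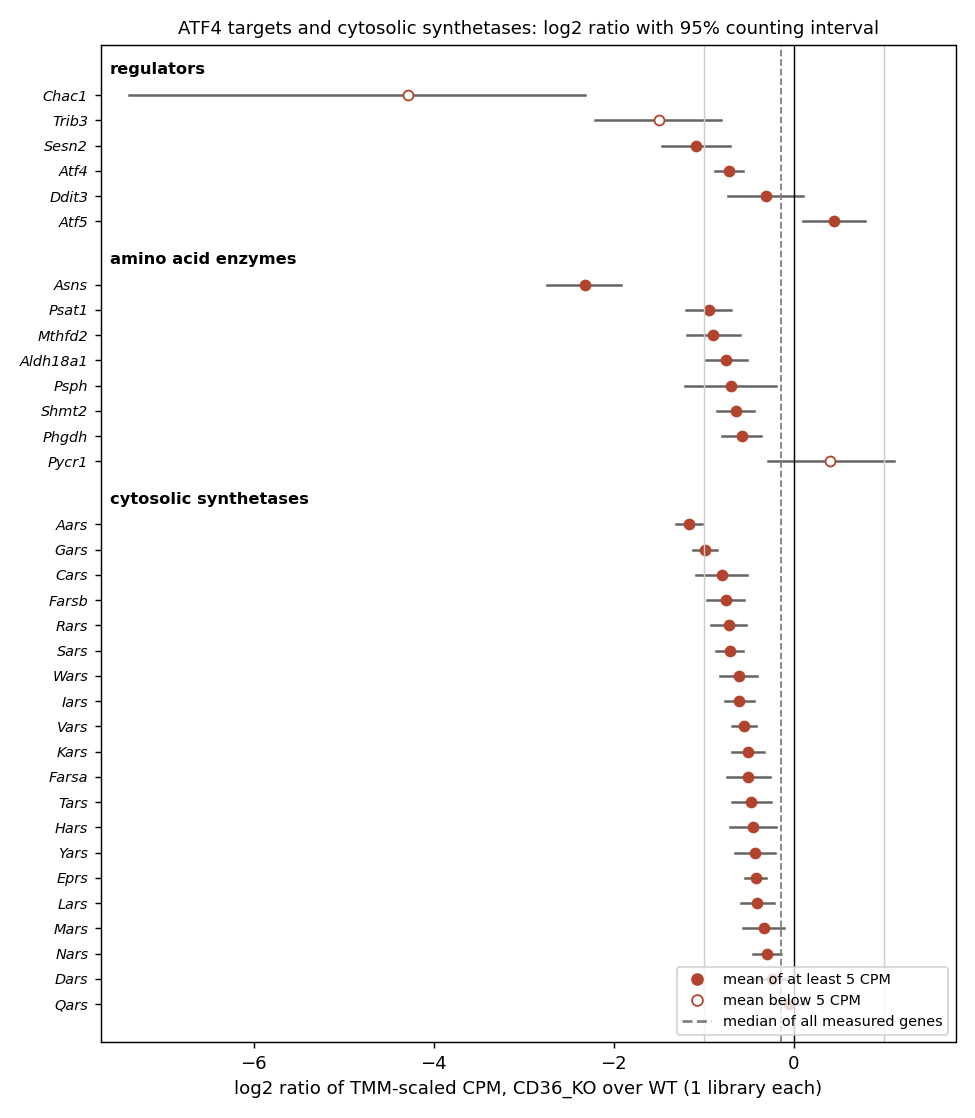
Log2 ratio of TMM-scaled CPM, CD36_KO over WT, for each of the 34 genes grouped by role, with the exact 95% counting interval; open points mark genes with a mean below 5 CPM and the dashed line the median of all measured genes at -0.13. Asns (-2.32) and Chac1 (-4.28) lie farthest to the left, and Atf5 (0.45) and Pycr1 (0.41) to the right of 0.

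Promoter sequences show which of the genes carry the letters of a C/EBP-ATF element, and 5 of the matches are printed because Asns and Chac1, which differed most in their groups, are among them. RefSeq promoters on GRCm38.p6 matched 27 of the 34 genes, and Cars, Hars, Lars, Nars, Rars, Vars and Wars had none in the table. The motif searched was TGATGNAA on both strands in the 250 bases before the start. It was present in 6 of the 27 genes (22.2%) and in 3.45% of 32851 promoters of the same length. The cyclic-AMP response element TGACGTCA, which cannot overlap a match of the first motif, was present in 0 of 27 genes and 1.55% of promoters. Capitals mark the motif, which appears as its reverse complement where it lies on the opposite strand, and each sequence is written 5′ to 3′ along its gene.
Chac1: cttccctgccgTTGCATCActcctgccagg
Asns: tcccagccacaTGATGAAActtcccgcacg
Gars: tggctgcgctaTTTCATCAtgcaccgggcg
Tars: caggagtcccgTTGCATCAgctggtt
Pycr1: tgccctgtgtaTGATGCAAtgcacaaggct

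Asns carries the motif on its own strand, 23 to 16 bases before the RefSeq start, at chr6:7693214-7693243 (minus strand). In humans, the promoter of this gene holds the nutrient-sensing response element through which ATF4 acts. Chac1 carries it on the opposite strand 193 to 186 bases before the start (chr2:119351038-119351067, plus strand). Gars holds it 30 to 23 bases before the start (chr6:55037960-55037989, plus strand), Tars 15 to 8 bases before (chr15:11399659-11399684, minus strand), and Pycr1 103 to 96 bases before on its own strand (chr11:120643833-120643862, minus strand). Chac1, Asns and Aars had the lowest ratios of their groups and Gars came next to Aars, whereas Tars was at -0.47 and Pycr1, below 5 CPM, at 0.41. The median ratio was -1.07 for the 4 measured genes with the motif, -0.59 for the 20 measured genes whose promoter lacked it and -0.55 for the 7 without a promoter sequence. By GENCODE release M21, whose Asns and Aars genes start farther upstream than in RefSeq, the match of Asns lies inside the gene's bounds. The same holds for the match of Aars, which is not printed here. A match describes letters and not a binding site, and no match says only that these letters are absent from the window.

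Among the regulators, the Atf4 mRNA itself was lower in CD36_KO. Atf4 (chr15:80255184-80257541) had 124, 149, 133 and 164 counts in the CD36_KO lanes and 200, 183, 192 and 218 in the WT lanes. Every CD36_KO lane lay below the lowest WT lane. The ratio was -0.71 (-0.87 to -0.56), and -0.20 with TPM. Atf5, a related factor translated under the same stress, went the other way, with 58, 47, 39 and 43 counts in the CD36_KO lanes and 33, 34, 26 and 23 in the WT lanes. As CPM its lanes overlapped narrowly, and its ratio was 0.45 (0.11 to 0.80), positive with TPM too (0.84). Ddit3, which encodes the stress factor CHOP, had 25, 23, 23 and 25 counts in the CD36_KO lanes and 20, 25, 24 and 32 in the WT lanes. Its lanes overlapped and its interval spanned 0 (-0.31, -0.73 to 0.11; 0.28 with TPM). The Ddit3 and Mars genes overlap at their 3′ ends on opposite strands and share 4.42% of the 31-base words of the main Ddit3 transcript, so without a stated strand setting reads there cannot be told apart.

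The inducible targets in the same group were few in counts. Sesn2 (chr4:132492032-132510501), a leucine sensor that restrains mTORC1, had 25, 15, 29 and 23 counts in the CD36_KO lanes and 41, 40, 50 and 34 in the WT lanes, without overlap as CPM. Its ratio of -1.08 (-1.47 to -0.70) lay close to the 2-fold limit, and it was -0.88 with total counts, -0.36 with TPM and under 2-fold without CD36_KO lane 2 or without WT lane 3. Trib3, a pseudokinase that feeds back on ATF4, had 5, 10, 8 and 3 counts in the CD36_KO lanes and 10, 23, 15 and 14 in the WT lanes, a ratio of -1.49 (-2.21 to -0.81). Chac1 (chr2:119351229-119354381), which degrades glutathione, had 1, 0, 1 and 0 counts in the CD36_KO lanes and 6, 8, 7 and 12 in the WT lanes. That gave a ratio of -4.28 with a wide interval (-7.39 to -2.32). Trib3 and Chac1 lay below 5 CPM and entered no count of measured genes. The median of the 4 measured regulators was -0.51, a difference of -0.38 from all genes with TMM and -0.33 with TPM.

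**Figure D2:**
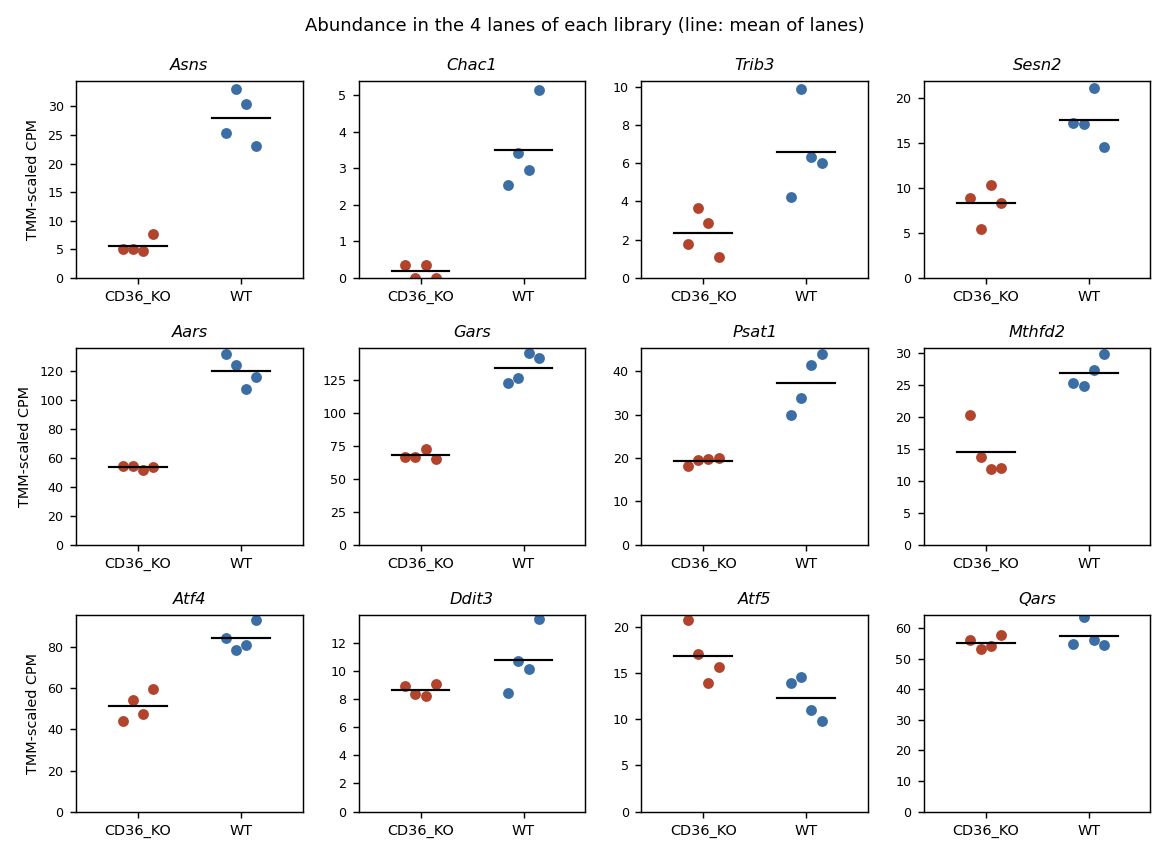
TMM-scaled CPM of 12 genes in each lane, on linear axes from 0, with CD36_KO lanes left of WT lanes; each point is 1 lane of the single library of its genotype and each line the mean of 4 lanes. Asns, Aars, Atf4 and Sesn2 lie lower in all CD36_KO lanes than in any WT lane, and the lanes of Qars and Ddit3 overlap.

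All 7 measured amino acid enzymes had a ratio below 0 with TMM, beside 7178 of the 12177 measured genes. In all 7 the CD36_KO lanes lay below the WT lanes, beside 33.3% of all measured genes. With TPM 4 of the 7 lay above 0, beside 9233 of the 12177. Asns, asparagine synthetase (chr6:7675169-7693254), differed most of all measured members. It had 14, 14, 13 and 21 counts in the CD36_KO lanes and 60, 77, 72 and 54 in the WT lanes, far apart. The ratio was -2.32 (-2.75 to -1.92), so the CD36_KO level was between 14.9% and 26.4% of the WT level, and 142 of the 12177 measured genes had a lower ratio. On the log2(TPM + 1) scale, which understates differences of low genes, it was -0.90 (3.87 TPM in CD36_KO and 8.09 TPM in WT).

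The serine pathway was lower in CD36_KO at each of its steps with TMM, whereas with TPM Psat1 was the one below 0. Phgdh, the first step, had 77, 81, 85 and 77 counts in the CD36_KO lanes and 86, 115, 108 and 95 in the WT lanes, a ratio of -0.57 (-0.79 to -0.36) and 0.08 with TPM. Psat1, the transaminase that follows, had 51, 54, 55 and 55 counts in the CD36_KO lanes and 71, 79, 98 and 103 in the WT lanes, a ratio of -0.95 (-1.20 to -0.70) and -0.33 with TPM. Psph, the final phosphatase, was counted only 59 times in CD36_KO and 81 times in WT (-0.70, -1.20 to -0.19; 0.08 with TPM). Sequence is shared with other genes for some of these: 74.1% of the 31-base words of the main Phgdh transcript recur in other genes of GENCODE release M21, mostly in Gm7901, and 24.8% of those of Psph, mainly in Cct6a, so their values depend on how reads were divided. Cct6a itself had a ratio of -0.61.

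Shmt2 and Mthfd2 pass serine carbon into mitochondrial folate metabolism. Shmt2 had 85, 93, 79 and 80 counts in the CD36_KO lanes and 121, 105, 104 and 116 in the WT lanes (-0.64, -0.85 to -0.44; 0.11 with TPM). Mthfd2 had 57, 38, 33 and 33 counts in the CD36_KO lanes and 60, 58, 65 and 70 in the WT lanes (-0.89, -1.18 to -0.60; -0.10 with TPM), and CD36_KO lane 1 came close to the WT lanes. Aldh18a1 starts proline synthesis from glutamate and had 70, 63, 73 and 64 counts in the CD36_KO lanes and 94, 109, 92 and 89 in the WT lanes (-0.75, -0.98 to -0.52; 0.25 with TPM). Pycr1, which completes it, had 14, 13, 8 and 11 counts in the CD36_KO lanes and 10, 6, 7 and 7 in the WT lanes, below 5 CPM and with an interval that spanned 0 (0.41, -0.28 to 1.12). The direction of Pycr1 was thus not resolved with TMM, and with TPM both proline enzymes lay above 0 (0.36 for Pycr1). The median of the 7 measured enzymes was -0.75, a difference of -0.61 from all genes with TMM and -0.29 with TPM, and all 7 lay below the all-gene median on both scales.

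The 20 cytosolic synthetases were all measured and all had a ratio below 0 with TMM, between -1.16 for Aars and -0.05 for Qars. Summed, they had 894.7 CPM in CD36_KO and 1331 CPM in WT (-0.57, -0.61 to -0.54). A ratio below 0 was found for 7178 of all 12177 measured genes. The counting interval lay below 0 for 19 of the 20 synthetases, beside 40.7% of all measured genes. For 16 all CD36_KO lanes lay below all WT lanes, beside 33.3% of all measured genes. The exceptions by lanes were Dars, Nars, Qars and Yars. All 20 averaged 20 CPM or more, where intervals are narrower, beside 6772 of the 12177 measured genes. Aars alone was at least 2-fold lower (5% of the 20, beside 10.8% of all measured genes). The median of -0.50 differed from that of all genes by -0.37 with TMM and -0.22 with TPM. A TPM ratio above 0 was found for 14 of the 20, beside 9233 of the 12177 measured genes. Below the all-gene TPM median lay 17 of the 20.

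Aars, the alanyl-tRNA synthetase (chr8:111033144-111057664), had 151, 149, 144 and 148 counts in the CD36_KO lanes and 312, 288, 254 and 271 in the WT lanes. The lanes lay far apart, and the CD36_KO level was 44.6% of the WT level (40.3% to 49.3%). Its ratio was -1.16 (-1.31 to -1.02) with TMM, -0.97 with total counts and -0.38 with TPM. Of the 31-base words of its main transcript 22.7% recur in Exosc6, an exosome subunit gene that has 0 counts in both libraries, so reads of Exosc6 may be counted under Aars.

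Gars, the glycyl-tRNA synthetase of cytosol and mitochondria (chr6:55038007-55079500), came next. It had 186, 183, 202 and 179 counts in the CD36_KO lanes and 290, 294, 343 and 331 in the WT lanes, without overlap. Its ratio was -0.98 (-1.12 to -0.85), and -0.41 with TPM. Then followed the synthetases for cysteine (Cars, -0.80), phenylalanine (Farsb, -0.75, and its partner subunit Farsa, -0.50), arginine (Rars, -0.72), serine (Sars, -0.71), tryptophan (Wars, -0.61), isoleucine (Iars, -0.60) and valine (Vars, -0.55). Neighbours in the order of all 20 had overlapping counting intervals, so their ranks are not resolved. Of the words of Hars, 8.42% recur in its mitochondrial counterpart Hars2. In Iars, 17.8% of the words recur in other genes, mostly in Gm4849, which had 1 count in CD36_KO and 0 in WT.

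The smallest differences were those of Tars (-0.47), Hars (-0.45), Yars (-0.43), Eprs (-0.42), Lars (-0.40), Mars (-0.33), Nars (-0.29), Dars (-0.24) and Qars, which load threonine, histidine, tyrosine, glutamate with proline, leucine, methionine, asparagine, aspartate and glutamine. Kars, for lysine, stood at -0.50. Qars had 157, 146, 151 and 159 counts in the CD36_KO lanes and 130, 149, 133 and 127 in the WT lanes. Its interval spanned 0 (-0.05, -0.22 to 0.12), and per length its level was 31.8 TPM in CD36_KO and 18.8 TPM in WT. Nars, the asparagine-loading enzyme, had 663 counts in CD36_KO and 688 in WT, while Asns, which makes asparagine, had 62 in CD36_KO and 263 in WT. Levels per length of all 34 genes ran between 0.083 TPM (Chac1) and 31.8 TPM (Qars) in CD36_KO, and between 0.75 TPM (Pycr1) and 30.1 TPM (Gars) in WT.

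For most amino acids mitochondria use separate synthetases, which serve here as a comparison within the same enzyme family. Of 17 listed, 16 were measured, with Pars2 below 5 CPM. Only Lars2 was at least 2-fold lower (6.25% of the 16, beside 10.8% of all measured genes). It had 1713 counts in CD36_KO and 11215 in WT (-2.95), and its transcript is known to hold ribosomal-RNA-like sequence. With TPM, Lars2 was 2-fold lower and Hars2 and Wars2 were 2-fold higher. By the same rule 2.7% of all measured genes were lower and 12.3% higher, so these counts are near the background. The median of the 16 was 0.03, which differed from all genes by 0.16 with TMM and 0.09 with TPM, and without Lars2 by 0.18. This small difference depended on the filter and on lanes: it was -0.12 over the 3 genes that averaged 20 CPM or more, 0.04 with no filter, 0.05 without CD36_KO lane 4 and 0.11 without WT lane 4. Among the others the highest ratios were those of Wars2 (0.42) and Cars2 (0.39).

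Pairing each cytosolic gene with the mitochondrial gene for the same amino acid gave 17 pairs over 16 mitochondrial genes. The cytosolic ratio was lower in 15 pairs with TMM and in 13 with TPM. The median difference, cytosolic minus mitochondrial, was -0.48 with TMM and -0.37 with TPM. Intervals were separate with the cytosolic gene lower in 8 pairs, separate with it higher in 1 and overlapping in 8. The widest gaps were those of alanine (-1.21), cysteine (-1.19), tryptophan (-1.03) and arginine (-0.95). The widest gap in the reverse order was, through Lars2, that of leucine (2.55).

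**Figure D3:**
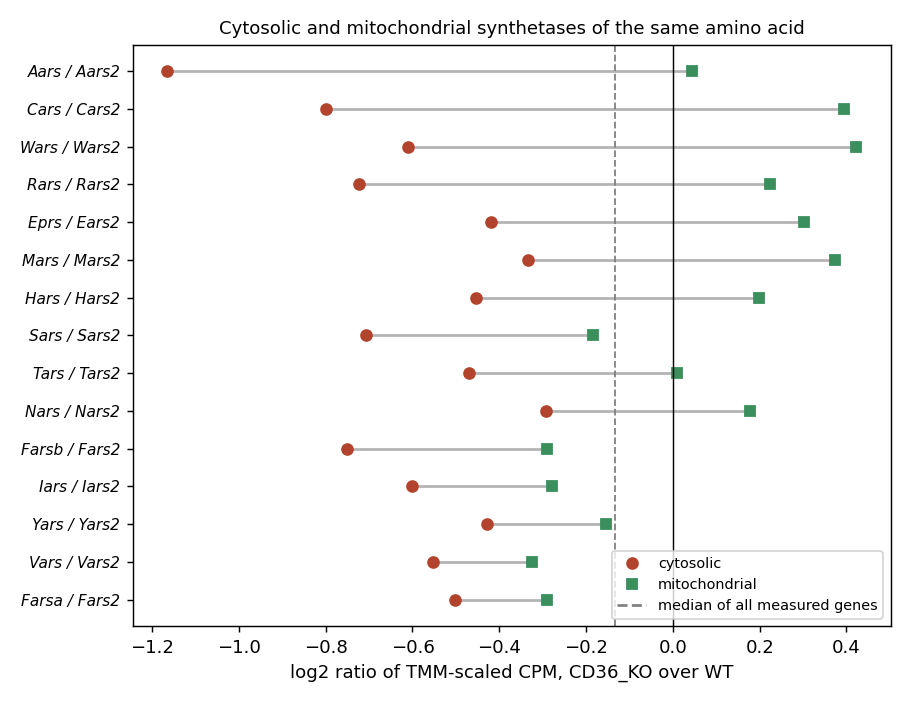
Log2 ratio of TMM-scaled CPM, CD36_KO over WT, of the cytosolic (circle) and mitochondrial (square) synthetase of the same amino acid, ordered by the gap; the pair of Lars with Lars2 (-2.95) is left off to keep the axis readable, and 1 further pair is not shown. The 2 pairs not drawn are those in which the cytosolic gene had the higher ratio. In the 15 pairs drawn the cytosolic gene therefore lies to the left by selection.

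Further ATF4 targets outside the 34 genes, among them amino acid transporters and stress factors, were mostly lower in CD36_KO with TMM. Of 28 listed, 21 were measured, and 8 (38.1%) were at least 2-fold lower and 0 higher, beside 10.8% and 6.5% of all measured genes. With TPM 0 of the 21 were at least 2-fold lower, and 1, Cbs, was higher, beside 2.7% and 12.3% of all measured genes. Those that differed most were Aldh1l2, a mitochondrial folate enzyme, with 37 counts in CD36_KO and 110 in WT (-1.81, -2.39 to -1.26), and the stress cytokine Gdf15, with 47 in CD36_KO and 111 in WT (-1.48). Both lay below 5 CPM in CD36_KO (3.33 and 4.24 CPM) and were measured only through their WT level, so they had to differ to be among those measured. The transcription factor Jdp2 had 67 counts in CD36_KO and 154 in WT (-1.44), and the leucine transporter Slc7a5 283 in CD36_KO and 554 in WT (-1.21). The median of the 21 was -0.73, a difference of -0.60 from all genes with TMM and with TPM alike. The highest was Cbs, an enzyme of cysteine synthesis, at 0.94.

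The list upstream of ATF4 held genes for eIF2 kinases, eIF2 and eIF2B, and also Gcn1, Impact and Ppp1r15b. Of its 15 genes, 0 were at least 2-fold lower or higher. By the same rule 10.8% of all measured genes were lower and 6.5% higher, so 0 of 15 is not far from the background. The counting interval lay below 0 for 9, beside 40.7% of all measured genes, and above 0 for 1, beside 24.9%. The median was -0.26, a difference of -0.13 from all genes with TMM and -0.15 with TPM. Eif2b2 (-0.52), Eif2b1 (-0.51), Eif2s2 (-0.50) and Eif2b5 (-0.48), all of them subunits of eIF2 or its exchange factor, lay farthest from 0. Phosphorylation of eIF2 was not measured. The 3 scaffold genes of the complex that gathers several synthetases had ratios of -0.87 (Aimp2), -0.68 (Eef1e1) and -0.28 (Aimp1). Of these 3, 0 were at least 2-fold lower, beside 10.8% of all measured genes.

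Around the amino acid enzymes, 11 of 14 listed serine and folate genes were measured. Those described with the largest differences were Sfxn1 (-0.62), a mitochondrial serine carrier, Tyms (-0.56), which makes thymidylate, and Gcsh (-0.54), of the glycine cleavage system. Their median differed from all genes by -0.28 with TMM and -0.31 with TPM. Of 7 further proline genes 2 were at least 2-fold lower (28.6%, beside 10.8% of all measured genes). They were Pycrl with 50 counts in CD36_KO and 101 in WT (-1.25) and Oat, ornithine aminotransferase, with 505 in CD36_KO and 898 in WT (-1.07). Pycrl, at 4.51 CPM in CD36_KO, was measured only through its WT level, and neither was 2-fold lower with TPM. Prodh, which degrades proline, was at -0.55 and Glud1 at 0.23. The median of these 7 differed from all genes by 0.00 with TMM and -0.11 with TPM.

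**Figure D4:**
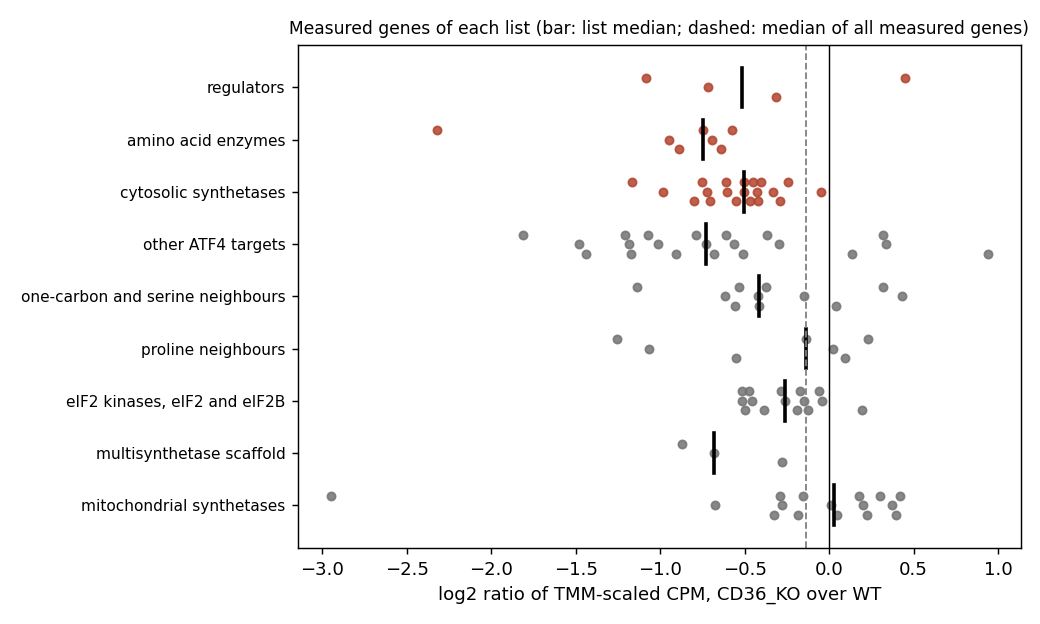
Log2 ratio of TMM-scaled CPM, CD36_KO over WT, of every measured gene in each group, with a bar at the group's median and the dashed line at the median of all measured genes. Amino acid enzymes (-0.75) and other ATF4 targets (-0.73) have the lowest medians of these lists and mitochondrial synthetases (0.03) the highest.

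The files also divide each gene's counts among its transcripts, a comparison chosen after values were seen. For 29 of the genes with both kinds of transcript and at least 20 counts per library, the share of counts on transcripts other than protein-coding ones (retained-intron, nonsense-mediated decay and others) had a median of 16.3% in CD36_KO and 7.36% in WT. It was higher in CD36_KO for 25 of 29, beside 62.9% of 9032 measured genes. The median difference was 5.04 percentage points for the 29 and 1.39 for all 9032. Shares on retained-intron transcripts were higher in CD36_KO for 25 of 29 as well, beside 67.9% of 6795 genes with such counts.

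Atf4 shows the pattern by transcript. Its main coding transcript had 353.4 estimated counts in CD36_KO and 617.2 in WT, while its retained-intron transcript had 216.6 in CD36_KO and 172.4 in WT, so the other-than-coding share was higher in CD36_KO by 16.2 percentage points. The share was 28.4% in CD36_KO and 11.3% in WT for Tars, 16.3% in CD36_KO and 4.26% in WT for Rars, and 35.3% in CD36_KO and 20.4% in WT for Nars. Mthfd2 had 16.7% in CD36_KO and 2.77% in WT, mostly through a nonsense-mediated decay transcript with 22.4 estimated counts in CD36_KO and 0.58 in WT. Qars was counted mainly on transcripts other than protein-coding ones in both libraries, at 90.6% in CD36_KO and 83.2% in WT. Exceptions were Wars, with 6.17% in CD36_KO and 20.5% in WT, and Psat1, Gars and Mars with small differences.

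With protein-coding transcripts alone the ratio of Atf4 was -0.90 and that of Qars -0.74, against -0.71 and -0.05 over all transcripts. The Qars value rests on a small part of its counts, since 90.6% in CD36_KO and 83.2% in WT lay on other transcripts. Asns (-2.31) and Aars (-1.02) stayed at least 2-fold lower, Sesn2 (-0.92) did not, and Trib3 (-1.42) passed the level of a measured gene and was then at least 2-fold lower. Division of reads among overlapping transcripts is an estimate, and the libraries differed in fragment length. The part of either in these shares was not tested.

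**Figure D5:**
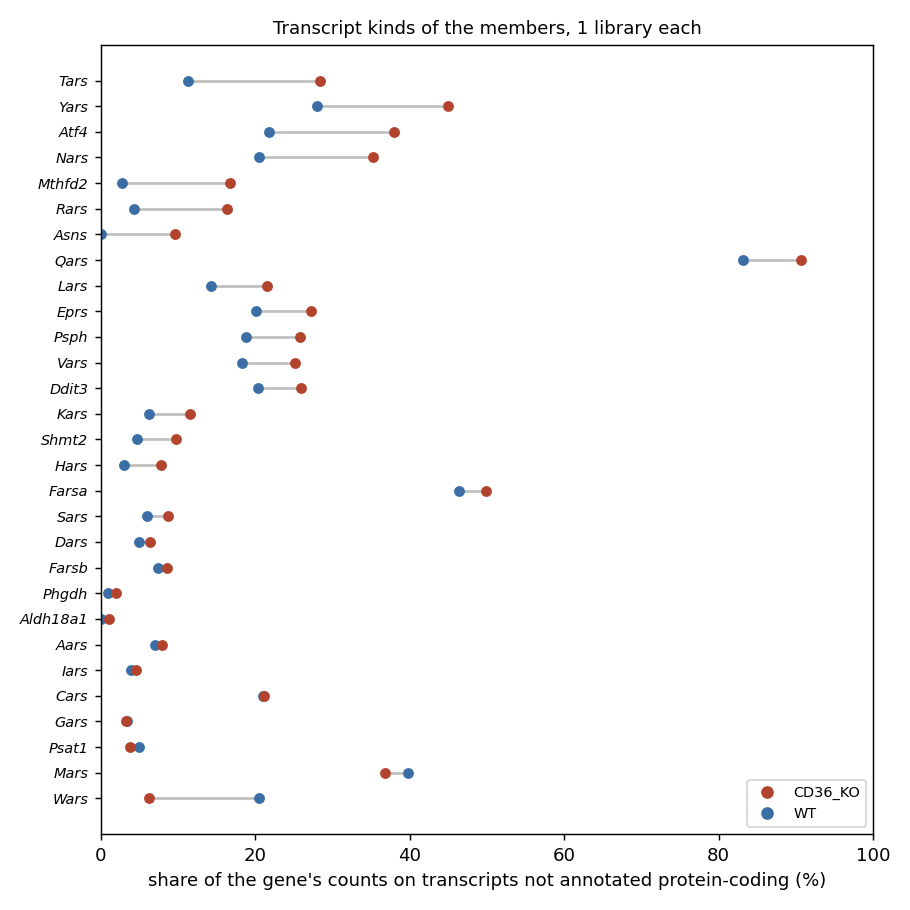
Percent of each gene's estimated counts on transcripts other than protein-coding ones, CD36_KO and WT points joined by a line, for the 29 genes with both kinds of transcript and at least 20 counts per library. CD36_KO lies to the right in 25 of 29, and Wars shows the widest gap the other way (6.17% in CD36_KO, 20.5% in WT).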

How the data were processed

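RNA-seq of 8 samples, 4 lanes of 1 library per genotype, was used. The submitters' processing notes name kallisto, DESeq2 and the build GRCm38.p6, without versions. Annotation release and strand setting are not stated in them. Per the file headers, the deposited estimated counts are given per transcript and were left unnormalised, and 33.8% to 35.4% of values per lane were not whole. The TPM values deposited by the authors are scaled for effective length and for each lane's total.

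Estimated counts were summed over transcripts and lanes per gene and rounded to whole numbers. Ddit3 has 2 gene identifiers, which were merged. TMM factors from edgeR 4.0.16 (R 4.3.3) were 1.071 for CD36_KO and 0.934 for WT. Gene positions came from GENCODE release M21 on GRCm38, which held 98.6% of the identifiers. TPM ratios are log2(TPM + 1) of lane means. Lanes of a genotype differed by a chi-square per degree of freedom of 1.25 in CD36_KO and 1.30 in WT over gene counts, beside 21.1 between lane 1 of CD36_KO and lane 1 of WT. Lanes were therefore summed and not used as replicates.

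The 34 genes, the comparison lists and the markers were chosen with earlier results of these data known. Every one of the 34 genes is accounted for, and up to 4 genes with the largest ratios in size are named per comparison list, plus the highest of the other ATF4 targets, chosen after its value was seen. Alternatives were total counts, median-of-ratios size factors, TPM, no filter, a mean of at least 20 CPM, protein-coding transcripts only, a 1.5-fold limit and leaving out each lane. A few items that these rules would name are not reported here.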

Additional observations from a re-analysis of the deposited data

Results flagged for a closer look

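In 5 of 86 groups of 4 lanes, over 43 genes and lists, 1 lane stood apart from the other 3 by more than Dixon's 95% critical value, which chance passes in about 1 in 20 groups. Asns had 7.63 CPM in CD36_KO lane 4, beside 4.65 to 5.09 CPM in the other CD36_KO lanes. Aars had 51.5 CPM in CD36_KO lane 3, beside 53.8 to 54.2 CPM. Kars had 47.5 CPM in CD36_KO lane 2, beside 39.3 to 40.6 CPM. Tars had 26.3 CPM in CD36_KO lane 4, beside 30.5 to 30.9 CPM. Eprs had 133.2 CPM in WT lane 1, beside 137.8 to 138.1 CPM in the other WT lanes. Of these, Asns and Aars were at least 2-fold lower without each of these lanes too.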

How the results depend on the processing

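The count of 3 genes at least 2-fold lower became 1 with total counts (Asns), 0 with log2(TPM + 1) and 5 with no filter (Chac1 and Trib3 added). It was 1 at a mean of at least 20 CPM (Aars) and 16 at the 1.5-fold limit. Fewer genes are tested under a stricter filter, and the cause was otherwise not tested. The count at least 2-fold higher was 0 under every one of these. In plain TPM, without the added 1, Asns was more than 2-fold lower and Atf5 just over 2-fold higher. With TPM the median of the genes was 0.11, relative to all measured genes -0.25, and that of the amino acid enzymes relative to all genes -0.29. The regulators' median relative to all genes was -0.90 with no filter and -0.84 with protein-coding transcripts only; the cause was not tested. Of 34 single-gene ratios, 12 moved beyond their counting interval with total counts, 33 with TPM and 6 with protein-coding transcripts. Leaving out each lane in turn gave 2 to 4 genes at least 2-fold lower and a median of -0.60 to -0.49. Sesn2 was under 2-fold without CD36_KO lane 2 or WT lane 3, Mthfd2 passed 2-fold without CD36_KO lane 1 and Gars without CD36_KO lane 3. Median-of-ratios factors, and, chosen after seeing the data, protein-coding genes as the comparison, moved no median or count beyond its lane spread or 1.5 times. No paired analysis was possible because each genotype had 1 library, lane numbers only name sequencing lanes, and no test was made. The 2-library design and counts under 100 for Asns, Psph, Sesn2, Ddit3, Pycr1, Trib3 and Chac1 in CD36_KO limit the precision.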
